A study of Mus musculus with 24 samples.

Results

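The genes described here are 36 heat shock and chaperone genes of the mouse, chosen by their symbols and by no measured value. They are 2 heat shock transcription factors, 10 chaperone genes of the stress-inducible kind and 24 that are mainly constitutive. Of the 19895 entries of the deposited expression table, 33 carried 1 of these symbols alone, and all 33 had a count above 0 in each library, so that they were among the 11438 genes tested. Cct8, Tcp1 and Stub1 occurred only in entries that they share with Usp16, Acat3 and Jmjd8, and were left out of the tests.

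N organoids are epithelial cultures grown from pancreatic ducts of normal C57Bl/6J mice. KP organoids were grown from pancreatic tumours of mice with a Trp53+/LSL-R172H allele, in which Pdx1-Cre activates mutant p53 in the pancreatic epithelium. Both were kept without EGF and N-acetylcysteine and received DMSO vehicle or 10 nM CR-31, a rocaglate inhibitor of the RNA helicase eIF4A, over 1 h. The 4 groups had 3 replicates each. From each of the 12 lysates, mRNA carrying 3 or more ribosomes (polysome-associated mRNA) and mRNA taken before the sucrose gradient (total mRNA) were sequenced, which gave 24 libraries. The labels do not say whether replicates came from separate animals, so the p-values measure the spread between these samples.

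Heat shock proteins bind unfolded or partly folded proteins and let them fold, keep them from clumping or pass them on for degradation. Hsp70 works in cycles of ATP hydrolysis that J-domain proteins start and that nucleotide exchange factors end, and Hsp90 takes over clients such as kinases and steroid receptors with the help of co-chaperones. Hsf1 is the transcription factor that raises the inducible genes when unfolded proteins build up, by binding repeats of the unit GAA and its reverse complement TTC (heat shock elements). Rapid synthesis of the inducible Hsp70 proteins is the classic mark of this heat shock response.

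Promoters are shown because Hsf1 acts on inducible genes through such elements and because the 2 inducible Hsp70 genes are near copies of each other. RefSeq (GRCm38.p6) gave a promoter, 250 bases before to 50 after the start of transcription, for 31 of the 36 genes. None was in the table for Hsf1, Hspa8, Hsp90aa1, Hsp90ab1 and Cct4. Of the 31, 17 held a pair of units (GAANNTTC or TTCNNGAA, which are their own reverse complements and so cover both strands), among them 8 of 9 inducible genes and 9 of 21 constitutive genes. Such a pair was held by 15.1% of all 32851 promoters and by 16.97% of the 27025 genes they belong to. A run of 3 units (GAANNTTCNNGAA or its reverse complement TTCNNGAANNTTC, in which each match also holds a pair) was present for 5 of the 31 genes, Hsph1, Chordc1, Dnajb6, Hspd1 and Hspe1, and in 0.603% of all promoters. In each sequence below, written 5′ to 3′ on the strand of the gene, the repeated units are in capitals. The windows stand at chr5:149636273-149636315 (Hsph1, minus strand), chr9:18292248-18292300 (Chordc1, plus strand), chr5:29735837-29735879 (Dnajb6, plus strand) and chr1:55088044-55088091 (Hspd1, minus strand).
Hsph1: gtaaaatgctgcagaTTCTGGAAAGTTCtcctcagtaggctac
Chordc1: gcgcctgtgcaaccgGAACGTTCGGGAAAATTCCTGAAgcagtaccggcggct
Dnajb6: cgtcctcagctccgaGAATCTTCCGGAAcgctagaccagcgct
Hspd1: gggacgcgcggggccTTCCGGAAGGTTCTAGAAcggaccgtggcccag

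Hspd1 and Hspe1, the 2 subunits of the mitochondrial chaperonin, are transcribed away from each other, and the window of Hspe1 is the same stretch of chromosome 1 read on the plus strand. Hspa1a and Hspa1b lie beside each other on the minus strand of chromosome 17, at chr17:34969359-34972156 and chr17:34956429-34959238. The promoter of Hspa1a, chr17:34972107-34972406, holds 1 pair of units.
Hspa1a: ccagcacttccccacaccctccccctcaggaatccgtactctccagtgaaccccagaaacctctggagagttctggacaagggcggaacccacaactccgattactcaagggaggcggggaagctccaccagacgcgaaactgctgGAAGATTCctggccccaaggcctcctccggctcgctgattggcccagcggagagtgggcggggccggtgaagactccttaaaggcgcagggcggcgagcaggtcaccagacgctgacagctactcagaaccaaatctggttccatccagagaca
The promoter of Hspa1b, chr17:34959189-34959488, has the same base at 296 of 300 positions, with the differences C44T, T47C, T249G and C276T, counted from the first base of the window with the Hspa1a base first. The authors discarded reads that match several places, so the counts of Hspa1a and Hspa1b rest on reads that tell the genes apart and their levels are uncertain.

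Libraries held 47308461 to 267463046 counted reads, of which the 33 genes took between 0.94 and 1.59%. Markers of pancreatic duct were present in each library (9 of 9 genes, summed level 5475 to 12884 CPM, counts scaled to library size by TMM), while acinar markers summed to at most 5.17 CPM with Cpa1 and Cpb1 at 0 throughout. The sequencing lanes named in the labels held either N or KP organoids, so lane and organoid type cannot be told apart. The polysome library of a lysate was compared with the total libraries of the same organoid type by the correlation of their deviations from the mean across the 11438 genes, a description in which each point is a gene. Its own total library was the best match for 8 of 12 lysates. For the lysates labelled N vehicle replicate 3 and N CR-31 replicate 3 the correlation with their own total library was 0.35 and 0.33, while with the total library of the opposite treatment it was 0.82 and 0.71. For the lysate labelled KP CR-31 replicate 1 the values were 0.21 with its own and 0.69 with that of KP vehicle replicate 1, and for N vehicle replicate 2 they were 0.66 and 0.70 with CR-31 replicate 2. No library was moved to another group, and the comparisons that N replicate 3 enters are given with and without both of its lysates where it moved them most.

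In vehicle-treated N organoids the 33 genes lay between the percentiles 62.6 and 99.7 of all entries in total mRNA. By RPKM (reads scaled to gene length and depth), which allow levels of different genes to be compared, Hspa8, the constitutive Hsp70, was highest in the total mRNA of vehicle-treated N organoids (2540 ± 276, SD, n = 3). Hsp90ab1, the constitutive Hsp90, followed with 1296 ± 74, and then came Bag1, a nucleotide exchange factor of Hsp70 (445 ± 151), Hspe1 (266 ± 27) and Cct5 of the cytosolic chaperonin TRiC (220 ± 12). Hspa8 and Hsp90ab1 did not overlap each other or Bag1, whereas the ranges of Bag1 and Hspe1 overlapped. The inducible genes were lower, from Hspb1 (81.5 ± 57.2) through Hsp90aa1 (68.1 ± 36.7), Hspa1b (63.8 ± 7.2) and Hspa1a (50.2 ± 3.0) to Dnajb4 (6.09 ± 1.63). In this order the ranges of Hspb1, Hsp90aa1 and Hspa1b overlapped, and those of Hspa1b and Hspa1a did not. Hsf2 (4.56 ± 1.19) and Hspa4l (4.04 ± 1.72) were lowest. In KP organoids the order began with the same 4 genes (Hspa8 2079 ± 176, Hsp90ab1 1161 ± 20, Bag1 445 ± 53, Hspe1 370 ± 61), and Fkbp4, an Hsp90 co-chaperone, stood in the fifth place (252 ± 19) instead of the eighth.

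The first comparison asks how the chaperone mRNAs of tumour organoids differ from those of normal organoids in the absence of drug. Among polysome-associated mRNAs, 6 of the 33 chaperone genes stood higher in KP organoids and 9 stood lower (adjusted p below 0.25). Of all tested genes 20.9% and 22.2% passed in these directions. The study used this limit on the adjusted p together with filters on effect size and slope, which were not applied here. The members' median difference was -0.19 on the log2 scale, against -0.03 over all genes tested. The 2 classes are given apart, with no test of the difference between them. Of the 10 inducible genes 0 were higher and 6 lower, all 10 had a negative difference and the median was -0.92, whereas of the 21 constitutive genes 5 were higher and 3 lower with a median of 0.25. With N replicate 3 left out, 11 members were higher and 7 lower (26.3% and 26.3% of all genes), and of the inducible genes 1 was higher and 4 were lower with a median of -0.31, and of the constitutive genes 9 were higher and 3 lower with a median of 0.23. The count moved by over 1.5 times without KP replicate 1 or KP replicate 2 (8 calls each) and without the lysate KP vehicle replicate 2 (9 calls). Whether the calls over all genes moved alike is not given here. In bulk organoids fewer cells of a kind and less RNA per cell cannot be told apart.

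Hspb8 and Hspb1 are small heat shock proteins, which hold unfolding proteins without using ATP, and Hspb8 had the largest difference among the members in KP polysomes, with and without N replicate 3. Hspb8, which works with Bag3 in the disposal of misfolded proteins, had 27.9, 53.5 and 102 CPM in the polysome-associated mRNA of N organoids and 2.09, 14.2 and 15.1 CPM in that of KP organoids. The groups did not overlap, and KP replicate 1 stood lowest in both fractions. The log2 difference was -2.55 (SE 0.83, adjusted p = 0.056), or 5.85-fold lower, and -1.97 (SE 0.92, adjusted p = 0.144) without N replicate 3. In total mRNA Hspb8 was at 34.9, 90.04 and 48.1 CPM in N and 1.33, 11.2 and 15.2 CPM in KP organoids, again without overlap (log2 difference -2.64 (SE 0.85, adjusted p = 0.0761)).

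Hspb1 (Hsp27) had 18.5, 84.98 and 202 CPM in N and 57.1, 36.4 and 31.8 CPM in KP polysome-associated mRNA. The N libraries differed among themselves by far more than the KP libraries, with replicate 1 below each KP library and replicates 2 and 3 above. The log2 difference of -1.29 (SE 0.70, adjusted p = 0.225) became -0.31 (SE 0.68, adjusted p = 0.763) without N replicate 3, so the call rested on that replicate. In total mRNA the levels were 22.1, 143 and 90.9 CPM against 41.6, 27.05 and 25.9 CPM, with a log2 difference of -1.43 (SE 0.72, adjusted p = 0.246) against -1.39 (SE 0.79, adjusted p = 0.382) without N replicate 3, a value of like size that was not called.

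Of the inducible Hsp70 genes, Hspa1b was lower in KP polysomes, a call that was lost without N replicate 3. Hspa1a was at 164, 80.96 and 537 CPM in the polysome-associated mRNA of N organoids and at 129.6, 97.4 and 159 CPM in that of KP organoids. In total mRNA it stood at 158, 154 and 165 CPM and 154, 142 and 160.5 CPM. The library labelled N vehicle replicate 3 stood far above the others in the polysome fraction and close to them in total mRNA. Hspa1b was arranged alike, with 228, 203 and 677 CPM against 182, 128 and 214 CPM in polysomes and 213, 196 and 198 CPM against 208, 195 and 211 CPM in total mRNA. The polysome difference was -1.08 (SE 0.45, adjusted p = 0.118) for Hspa1b and -1.02 (SE 0.62, adjusted p = 0.276) for Hspa1a, and without N replicate 3 it was -0.30 (adjusted p = 0.343) and 0.07 (adjusted p = 0.884). In total mRNA the differences were 0.01 (SE 0.19) and -0.06 (SE 0.20), neither of which passed the test.

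Of the constitutive Hsp70 genes, Hspa8 was lower in KP polysomes, at 4082, 3358 and 4187 CPM against 4617, 5089 and 6777 CPM in N organoids. No KP library reached an N library, and the log2 difference was -0.50 (SE 0.22, adjusted p = 0.133) and -0.32 (adjusted p = 0.228) without N replicate 3. Hspa14, an Hsp70 that sits at ribosomes, was higher by 0.57 (SE 0.20, adjusted p = 0.0666). Among the exchange factors of the Hsp110 family, Hsph1 was at 56.7, 31.8 and 61.5 CPM in KP and 68.2, 78.1 and 96.3 CPM in N polysomes and lower by test (-0.69 (SE 0.39, adjusted p = 0.242)), also without N replicate 3 (-0.55 (adjusted p = 0.201)). Its total mRNA overlapped, at 47.8, 37.1 and 53.3 CPM and 53.2, 52.4 and 39.1 CPM. Hspa4 and Hspa4l were called in neither fraction.

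Dnajb4 and Bag3 were lower in KP polysomes and Dnajb1 was not. Dnajb4, a J-domain protein, had 11.3, 7.89 and 12.4 CPM in KP and 14.3, 26.3 and 33.4 CPM in N polysomes, with no overlap (log2 difference -1.23 (SE 0.37, adjusted p = 0.0445), and -0.95 (adjusted p = 0.0864) without N replicate 3). Dnajb1, the main J-domain partner of inducible Hsp70, was at 41.03, 52.1 and 215 CPM in N polysomes and 68.03, 68.05 and 62.1 CPM in KP polysomes. Only the library labelled N vehicle replicate 3 exceeded the KP libraries, and the difference turned from -0.64 (SE 0.47, adjusted p = 0.372) to 0.50 (SE 0.16, adjusted p = 0.0523) without N replicate 3. Bag3, which links Hsp70 to small heat shock proteins, stood at 35.7, 29.4 and 46.9 CPM in KP and 44.8, 70.5 and 81.3 CPM in N polysomes. It was lower in KP polysomes (-0.81 (SE 0.27, adjusted p = 0.0584)) and in KP total mRNA (-0.69 (SE 0.25, adjusted p = 0.114), with 43.997, 42.8 and 50.3 CPM against 50.6, 91.5 and 79.7 CPM), and it kept both calls without N replicate 3 (adjusted p = 0.111 and 0.223). Dnajb6, a suppressor of protein aggregation, was lower in total mRNA alone by the threshold (-0.49 (SE 0.19, adjusted p = 0.139)), which is not a test of the fractions against each other.

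Of the 2 Hsp90 genes 1 was called. Hsp90ab1 was lower in KP polysomes, at 2462, 2515 and 2763 CPM against 3163, 3530.2 and 2969 CPM (log2 difference -0.32 (SE 0.16, adjusted p = 0.199)), and Hsp90aa1, the inducible form, overlapped at 706, 353 and 527 CPM and 653, 499 and 659 CPM. Of the 6 Hsp90 co-chaperones, 3 were higher in KP polysomes and 0 lower, against 20.9% and 22.2% of all genes, and without N replicate 3 there were 4 and 0 (26.3% and 26.3%). Chordc1 had a negative difference (-0.43) and the p23 gene Ptges3 a positive one (0.29), neither of which passed. Fkbp4, an immunophilin of steroid receptor complexes, had 835, 722 and 688 CPM in KP and 278, 273 and 539.7 CPM in N polysomes. Its lowest KP library was above its highest N library, and the log2 difference was 1.04 (SE 0.26, adjusted p = 0.0238), or 2.06-fold, rising to 1.44 (adjusted p = 0.00251) without N replicate 3. In total mRNA it stood at 633, 589.7 and 581 CPM against 322, 334 and 369 CPM (log2 difference 0.82 (SE 0.21, adjusted p = 0.0359)).

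Ahsa1, which stimulates the ATPase of Hsp90, was at 189, 149 and 159.5 CPM in KP and 111, 94.9 and 98.8 CPM in N polysomes, without overlap (log2 difference 0.71 (SE 0.20, adjusted p = 0.0342)). Its total mRNA was also higher (0.50 (SE 0.18, adjusted p = 0.109)), but not by test without N replicate 3 (adjusted p = 0.297). Cdc37, which brings kinases to Hsp90, was higher in polysomes (0.37 (SE 0.17, adjusted p = 0.161)), and Stip1 (Hop), the bridge from Hsp70 to Hsp90, in total mRNA (0.56 (SE 0.18, adjusted p = 0.0704)). The mitochondrial co-chaperonin Hspe1 was at 435, 348 and 314 CPM in KP and 193, 155 and 252 CPM in N polysomes, without overlap (log2 difference 0.87 (SE 0.27, adjusted p = 0.0465), and 1.08 (adjusted p = 0.0111) without N replicate 3). Among the 5 TRiC subunits, Cct4 was lower in polysomes (-0.54 (SE 0.20, adjusted p = 0.0899)) and Cct3 higher in total mRNA (0.45 (SE 0.19, adjusted p = 0.16)), while Cct2 (0.04 and 0.17 in the 2 fractions) passed in neither. Hsf1 was higher in KP polysomes, at 87.6, 97.7 and 87.9 CPM against 72.5, 62.4 and 55.03 CPM (log2 difference 0.52 (SE 0.18, adjusted p = 0.0667), and 0.43 (adjusted p = 0.0547) without N replicate 3), while its total mRNA overlapped at 71.3, 67.8 and 63.1 CPM and 66.1, 66.1 and 65.8 CPM.

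**Figure D1:**
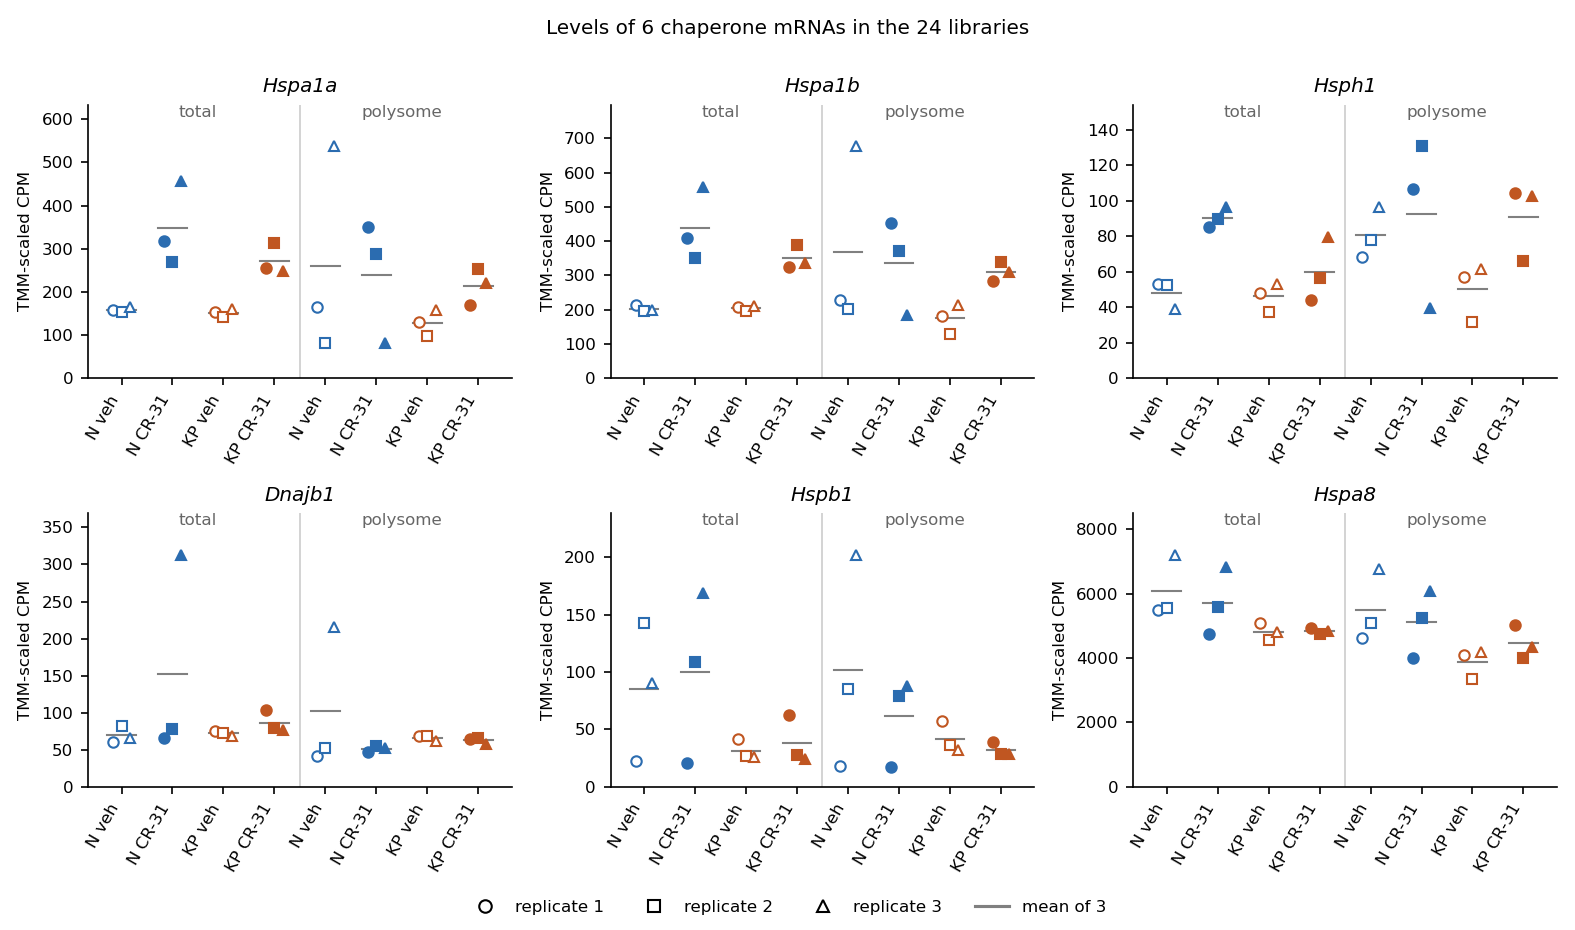
CPM (TMM-scaled) of Hspa1a, Hspa1b, Hsph1, Dnajb1, Hspb1 and Hspa8 in the 24 libraries, with N in blue, KP in orange, vehicle as open and CR-31 as filled symbols, the symbol shape giving the replicate and the grey line the mean of 3. On the polysome side of each panel the library labelled N vehicle replicate 3 is highest among the N vehicle libraries, for example 537 CPM of Hspa1a, while in total mRNA both inducible Hsp70 genes are higher in each CR-31 library than in each vehicle library of the same organoid type.

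In total mRNA over all 33 genes, 5 were higher and 4 lower in KP organoids (13.1% and 15.4% of all genes), with a median of 0.01 against -0.03. Without N replicate 3 there were 2 higher (Fkbp4, Stip1) and 3 lower (Hspb8, Bag3, Dnajb6), where 8.25% and 10.7% of all genes were called. The count also moved by over 1.5 times without N replicate 1 or the lysate KP CR-31 replicate 1 (14 calls each), and without N replicate 2, N vehicle replicate 2, N vehicle replicate 3 or KP vehicle replicate 1 (4 calls each). It was 5 without KP replicate 2 or 3. The shares of all genes in these left-out fits are not given, so the counts are no result about the members. The ratio of polysome-associated to total mRNA (translational efficiency) differed between KP and N for 0 members and for 0 of all genes by edgeR, with 0 members and 1296 genes at an unadjusted p under 0.05. DESeq2 also called 0 members, and a regression on total mRNA called Hsf1 and Cct4 (6.62% of all genes higher and 4.46% lower), or with the block 12 members as higher and 11 as lower (27.9% and 26.5%). Leaving out the lysate N vehicle replicate 3 alone gave 3 member calls, a count without the share of all genes beside it. Without both lysates of N replicate 3 the efficiency was higher in KP for 7 members and lower for 2, where 20% and 15.8% of all genes were called. The 7 were Hspb1 (0.87 (SE 0.23, adjusted p = 0.08)), Hspb8 (0.82 (SE 0.23, adjusted p = 0.0814)), Fkbp4, Hspe1, Dnajb1, Hsf1 and Cdc37, and the lower ones were Hspa4l (-0.69 (adjusted p = 0.243)) and Hspa1b (-0.36 (adjusted p = 0.22)).

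Vehicle and CR-31 lysates of the same number deviated together within each organoid type, so a second fit was made in which the replicate numbers of each organoid type formed a block. It removes the differences between replicate numbers from the error. The labels do not say that these numbers are cultures, and in part they follow sequencing lane or run. The p-values of this fit for KP against N are therefore too small as a measure of differences between organoid types. With it, 10 members were higher and 13 lower in KP polysomes (34% and 34.8% of all genes), and 9 higher and 7 lower in total mRNA (27.7% and 28.7%).

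**Figure D2:**
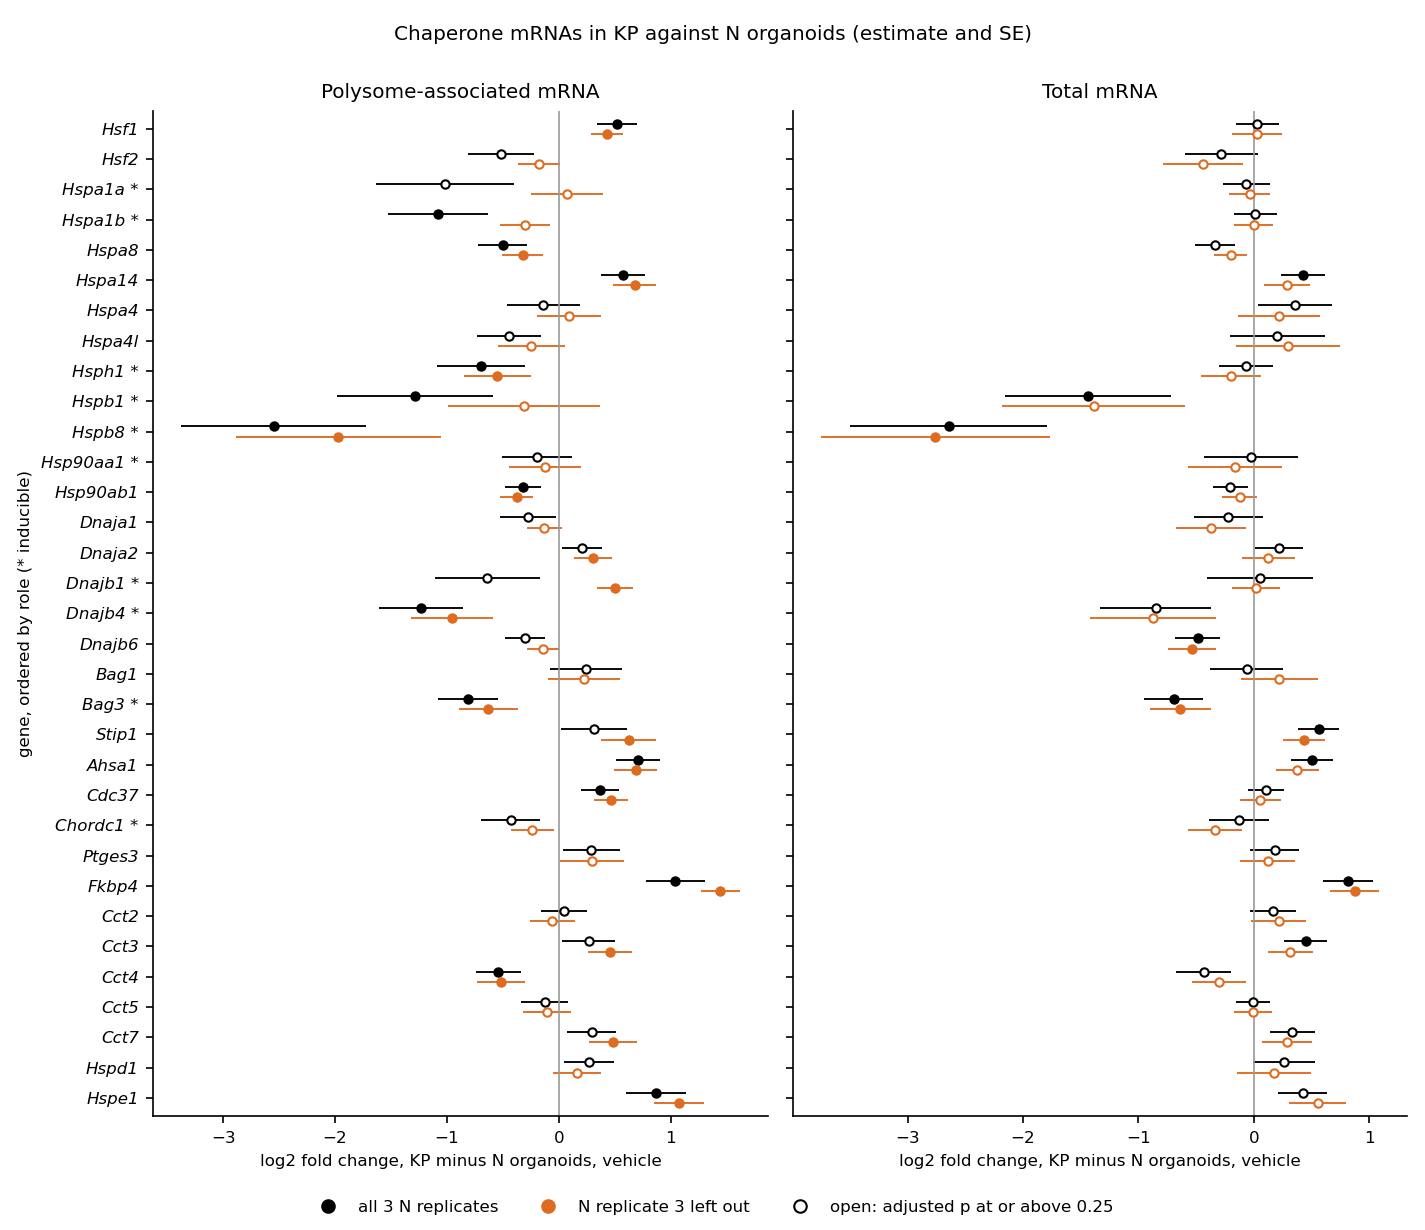
Log2 difference (KP minus N, vehicle; bars are the SE) of the 33 genes in polysome-associated mRNA (left) and total mRNA (right), with all N replicates in black and N replicate 3 left out in orange, filled where the adjusted p was below 0.25 and with inducible genes starred. Hspb8 lies farthest to the left (-2.55 and -2.64) and Fkbp4 farthest to the right (1.04 and 0.82), and Dnajb1 changes side in the left panel when N replicate 3 is left out.

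The same organoids were compared under CR-31. In polysome-associated mRNA 8 members were higher in KP and 1 was lower (11.2% and 13.8% of all genes), and without N replicate 3 there were 9 higher and 2 lower (16% and 18.7%). All 8 were constitutive: Fkbp4 (0.82 (SE 0.26, adjusted p = 0.0836)), Cct3 (0.76 (SE 0.24, adjusted p = 0.0802)), Hspa14 (0.74 (SE 0.20, adjusted p = 0.0452)), Hspd1 (0.67 (adjusted p = 0.0995)), Stip1, Ahsa1, Cct7 and Dnaja2, the last 4 between 0.46 and 0.67. The lower one was Hspb8 (-2.30 (SE 0.82, adjusted p = 0.114)). Leaving out the lysate KP CR-31 replicate 1 or all of KP replicate 1 reduced the 9 calls to 1 and 2. Without N replicate 2 or KP replicate 3 there were 5, and without the lysates N CR-31 replicate 2 or KP CR-31 replicate 3 there were 6. Without N replicate 1 there were 14. No share of all genes is given for these fits, so the counts describe the fits and not the members.

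In total mRNA under CR-31, 5 members were higher in KP and 10 lower (18.9% and 21% of all genes), and 5 and 4 without N replicate 3 (13.5% and 13.4%). The lower ones included 5 of the 10 inducible genes, with Hspb8 (-2.81 (SE 0.86, adjusted p = 0.0563)) and Dnajb4 (-1.68 (SE 0.49, adjusted p = 0.0479)) first, and all 10 inducible genes had a negative difference (median -0.61). Without N replicate 3 it was 3 of the 10 that were lower and 9 that had a negative difference, with a median of -0.28. Among the constitutive ones were Dnaja1, a J-domain partner of Hspa8 (-0.78 (SE 0.30, adjusted p = 0.113)), and Ptges3 (-0.39 (SE 0.21, adjusted p = 0.233)), both of which lost the call without N replicate 3. Dnajb4 was at 15.9, 29.4 and 41.4 CPM in the N CR-31 libraries and at 3.41, 9.87 and 13.7 CPM in the KP CR-31 libraries. The lowest of these was the lysate KP CR-31 replicate 1, without which 5 members in all were called, as without KP replicate 1. Leaving out the lysate N CR-31 replicate 3 gave 9. For these left-out lysates too the share of all genes is not given. The higher ones were Fkbp4, Hspe1, Cct3, Stip1 and Cct7. With the replicate block 11 members were higher and 5 lower in polysomes (28.7% and 29.5%) and 7 and 16 in total mRNA (31.7% and 33.4%). These comparisons share no library with those under vehicle, but their spread was estimated over the 4 groups together.

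The second question is what 1 h of CR-31 did to these mRNAs. In the total mRNA of N organoids Hspa1a stood at 158, 154 and 165 CPM under vehicle and 317, 270.2 and 457 CPM under CR-31. Hspa1b stood at 213, 196 and 198 CPM and 408, 350.2 and 557 CPM. In KP organoids Hspa1a was at 154, 142 and 160.5 CPM under vehicle and 256, 314 and 247 CPM under CR-31, and Hspa1b was at 208, 195 and 211 CPM and 324, 389 and 337 CPM. For both genes and both organoid types each CR-31 library was above each vehicle library.

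Without the block, edgeR called 0 of all genes for CR-31 in the total mRNA of N organoids, with 297 genes and 4 members at an unadjusted p under 0.05. The members were Hspa1a (1.13 (SE 0.20, adjusted p = 0.384)), Hspa1b (1.12 (SE 0.19, adjusted p = 0.384)), Hsph1 (0.91 (SE 0.23)) and Dnajb1 (1.13 (SE 0.47)). With the replicate block, Hspa1a and Hspa1b rose, by 1.09 (SE 0.17, adjusted p = 0.173) and 1.09 (SE 0.17, adjusted p = 0.173), and 0 members fell. They were 2 of the 6 genes that rose among all tested (0.0525%). DESeq2 also called Hspa1a and Hspa1b (1.12 (adjusted p = 0.00111) and 1.11 (adjusted p = 0.000123)) and no other member, where 0.105% of all genes rose. Without N replicate 3 the estimates were 0.91 (SE 0.20) and 0.89 (SE 0.19) and neither was called by edgeR, with the block (adjusted p = 0.871 for Hspa1a) or without it. With KP replicate 1 left out of the blocked fit as well, which was chosen after the data were seen, 10 members rose and 6 fell in N total mRNA (13.1% and 14.5% of all genes), led by Hspa1a (0.90 (SE 0.12, adjusted p = 0.0191)), Hspa1b (0.88 (SE 0.09, adjusted p = 0.00978)) and Hsph1 (0.72 (SE 0.06, adjusted p = 0.00644)). The N libraries in that fit were the same.

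In the total mRNA of KP organoids edgeR called 0 genes, with 109 genes and 2 members at an unadjusted p under 0.05, namely Hspa1a (0.84 (SE 0.20)) and Hspa1b (0.77 (SE 0.19)). The block gave 0 calls with 580 genes at an unadjusted p under 0.05 (adjusted p = 0.458 for Hspa1a). DESeq2 called both (0.85 (adjusted p = 0.221) and 0.78 (adjusted p = 0.215)) and no other member, where 0.0613% of all genes rose. The block without N replicate 3 called 0 members, and with KP replicate 1 left out as well 9 rose and 0 fell (11.8% and 8.14% of all genes), led by Hspa1a (0.89 (SE 0.12, adjusted p = 0.026)), Hspa1b (0.84 (SE 0.09, adjusted p = 0.0193)) and Hsph1 (0.60 (SE 0.06, adjusted p = 0.0193)).

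Hsph1 was at 53.2, 52.4 and 39.1 CPM under vehicle and 85.2, 89.6 and 96.3 CPM under CR-31 in N total mRNA, without overlap, and with all replicates it passed no test there with or without the block (adjusted p = 0.265 with it). In KP total mRNA it overlapped, at 47.8, 37.1 and 53.3 CPM and 43.8, 56.7 and 79.4 CPM. Dnajb1 stood at 60.5, 82.04 and 66.2 CPM and 65.7, 77.8 and 313 CPM in N total mRNA. Only replicate 3 was higher under CR-31 by more than the spread, and without it the estimate went from 1.13 to 0.01.

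In polysome-associated mRNA the class median of the inducible genes of N organoids had opposite signs in the replicates. The median log2 change of the 10 inducible genes with CR-31 was 0.21, 0.26 and -1.25 in replicates 1, 2 and 3, and in total mRNA it was 0.15, 0.03 and 1.32. Bag3 (-0.14, -0.41 and -0.42) and Hspb1 (-0.08, -0.10 and -1.20) had a negative polysome change in each of the 3 replicates. In KP organoids the median of the inducible genes was 0.29, 0.43 and 0.29 in polysomes and 0.46, 0.21 and 0.18 in total mRNA. The constitutive genes moved less, with medians between -0.31 and 0.14 in polysomes and between -0.17 and 0.40 in total mRNA over the 6 replicates, and N replicate 3 gave the extreme values of -0.31 and 0.40. Across all genes the changes in the polysome and total libraries of N replicate 3 were correlated at -0.67, where the other replicates gave between -0.28 and 0.51.

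Within sequencing lanes the inducible medians in N organoids were 0.06 in polysomes and -0.08 in total mRNA on lane 5, and -0.86 and 1.02 on lane 6, which held replicate 3 of both groups and CR-31 replicate 2. In KP organoids they were 0.54 and 0.27 on the run that held vehicle replicates 1 and 2 and CR-31 replicate 1, and 0.18 and -0.01 on the other. With 1 to 2 lysates of a group on a lane, no test was made within lanes, and a fit with lane as a term called 0 members for CR-31.

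**Figure D3:**
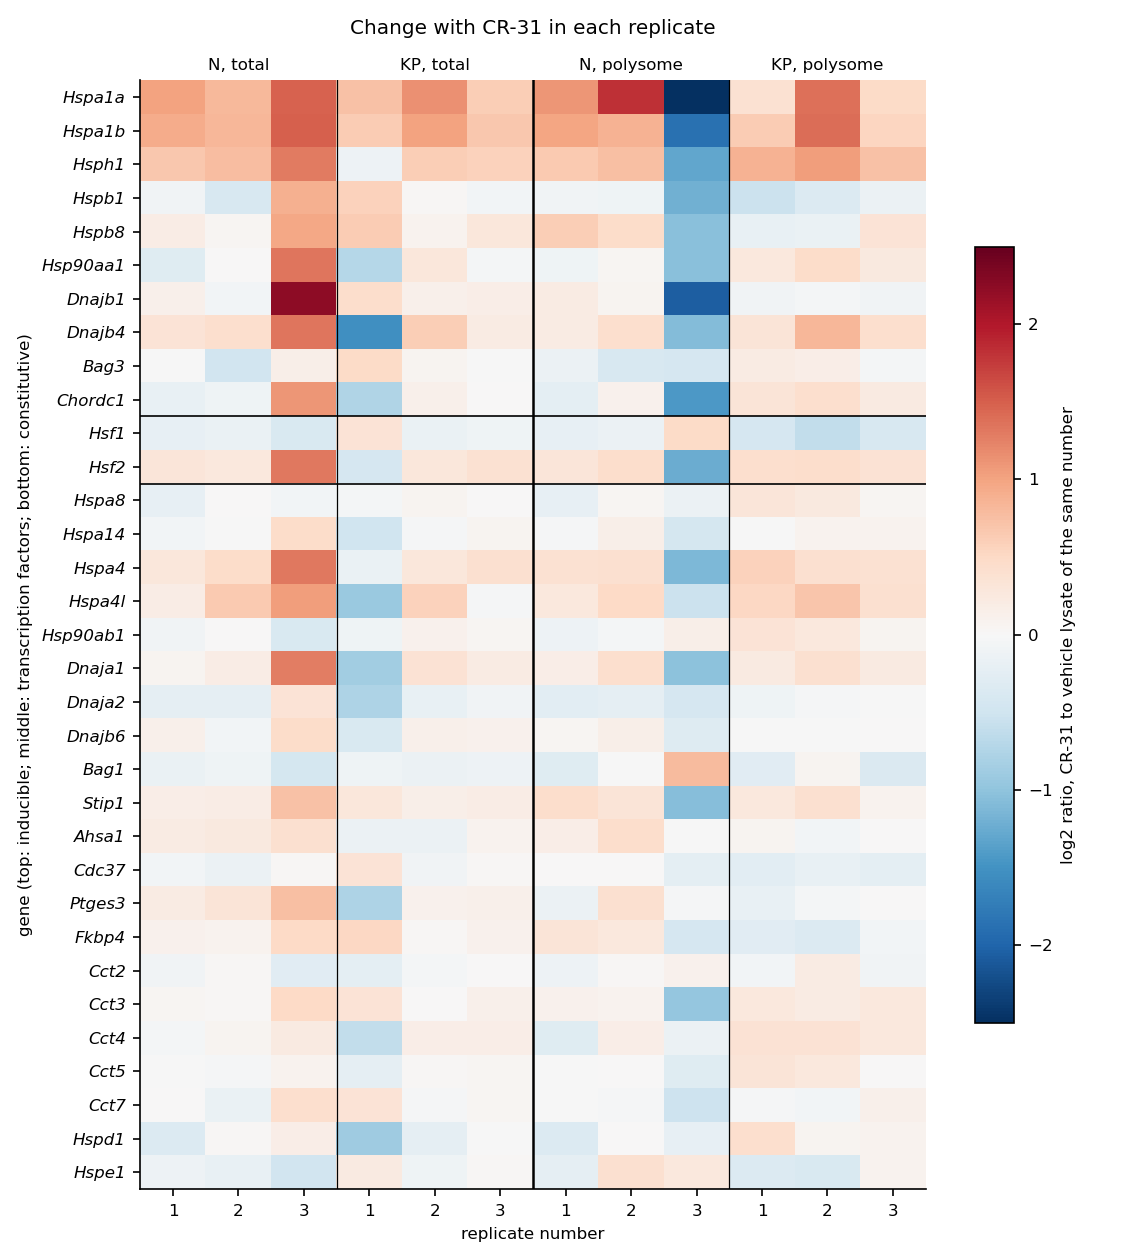
Heat map of the log2 ratio of the CR-31 to the vehicle lysate of the same number (red higher, blue lower under CR-31, scale cut at 2.5) for the 33 genes in total and polysome-associated mRNA of N and KP organoids. The inducible genes of N replicate 3 are red in total mRNA (median 1.32) and blue in polysome-associated mRNA (median -1.25), while Hspa1a and Hspa1b are red in all KP columns.

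In the polysomes of N organoids Hspa1a had 164, 80.96 and 537 CPM under vehicle and 350.3, 288 and 80.7 CPM under CR-31. Hspa1b had 228, 203 and 677 CPM and 453, 371 and 186 CPM, and Hsph1 68.2, 78.1 and 96.3 CPM and 107, 131 and 39.3 CPM. In replicates 1 and 2 all 3 genes were higher under CR-31, and in replicate 3 all 3 were lower. EdgeR called 0 genes with all replicates, with and without the block, where 48 genes and 0 members had an unadjusted p under 0.05 without it, and 0 again when N replicate 3 was left out. The estimate for Hspa1a went from -0.12 (SE 0.61) to 1.39 (SE 0.36), and that of Hspa1b from -0.13 (SE 0.44) to 0.94 (SE 0.25).

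A fit with the block and without N replicate 3, chosen after the data were seen and with 2 pairs left in N, called 10 members as higher under CR-31 in N polysomes and 0 as lower, where 9.68% of all genes were higher. They were Hspa1a (1.47 (SE 0.22, adjusted p = 0.00837)), Hspa1b (0.94 (SE 0.18, adjusted p = 0.0203)), Hsph1 (0.70 (SE 0.12, adjusted p = 0.0134)), Hspb8 (0.54 (SE 0.13, adjusted p = 0.0484)), and with smaller changes Hspa4, Hspa4l, Hsf2, Stip1, Ahsa1 and Dnajb4. The call of these genes rests on leaving out that replicate, and 6 of them were called (6.55% of all genes higher) when KP replicate 1 was left out as well.

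In the polysomes of KP organoids Hsph1 stood at 56.7, 31.8 and 61.5 CPM under vehicle and 104, 66.1 and 102 CPM under CR-31. Hspa1a stood at 129.6, 97.4 and 159 CPM and 169, 253 and 221 CPM, and Hspa1b at 182, 128 and 214 CPM and 284, 338 and 311 CPM. For these genes each CR-31 library was above each vehicle library. Hsf1 went the other way, from 87.6, 97.7 and 87.9 CPM to 65.6, 63.4 and 66.7 CPM, again without overlap.

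Without the block edgeR called 0 genes in KP polysomes, with 406 genes and 2 members (Hsph1 and Hsf1) at an unadjusted p under 0.05, and DESeq2 called 0 members. Of the 33 members 23 had a positive change, and the median was 0.20 against -0.02 over all genes tested. With the replicate block 2 members rose, Hsph1 (0.89 (SE 0.33, adjusted p = 0.207)) and Hspa4l (0.54 (SE 0.19, adjusted p = 0.196)), and Hsf1 fell (-0.48 (SE 0.16, adjusted p = 0.194)), where 8.3% of all genes rose and 11.1% fell. With the block and without N replicate 3, which narrows the shared estimate of spread and leaves the KP libraries as they were, 17 members rose and 5 fell (25.4% and 29.5% of all genes). Hsph1 led with 0.89 (SE 0.10, adjusted p = 0.000275), followed by Hspa1b (0.86 (SE 0.15, adjusted p = 0.00163)), Hspa1a (0.74 (SE 0.18, adjusted p = 0.00772)), Hspa4l (0.54 (adjusted p = 0.00192)), Dnajb4 (0.52 (adjusted p = 0.00508)) and Hspa4 (0.45 (adjusted p = 0.00652)). Those that fell were Hsf1 (-0.48 (SE 0.09, adjusted p = 0.00278)), Hspb1 (-0.35 (adjusted p = 0.016)), Fkbp4, Cdc37 and Bag1. With KP replicate 1 left out of this fit as well, 11 members rose and 2 fell, Hsf1 and Hspb1 (17.6% and 20.4% of all genes), and Hsph1, Hspa1b and Hspa1a were at 0.89, 0.97 and 0.92 (adjusted p = 0.000732, 0.0025 and 0.00599). The abundant Hspa8 was at 4082, 3358 and 4187 CPM under vehicle and 5029, 3988 and 4343 CPM under CR-31, and Hsp90ab1 at 2462, 2515 and 2763 CPM and 3105, 2999 and 2880.3 CPM. Neither passed the test with all replicates. For Hsp90ab1 each CR-31 library was above each vehicle library, while Hspa8 overlapped. The fit with the block and without N replicate 3 called both Hsp90 genes and 3 of the 4 Hsp70 genes as higher.

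The levels of the remaining genes are given by library, as a description with no test beyond those above. Under CR-31 Hsp90aa1 stood at 603, 518 and 320.4 CPM in N and 844, 483 and 621 CPM in KP polysomes, and at 269.9, 143 and 435 CPM and 176, 170.1 and 199.98 CPM in total mRNA. Hspb1 stood at 17.5, 79.4 and 87.6 CPM and 39.1, 28.9 and 28.7 CPM in polysomes and at 20.8, 109 and 169 CPM and 62.2, 27.6 and 24.6 CPM in total mRNA. Bag3 stood at 40.7, 53.2 and 60.7 CPM and 41.04, 33.2 and 45.3 CPM in polysomes and at 50.3, 65.5 and 87.95 CPM and 60.9, 44.7 and 50.05 CPM in total mRNA. For these 3 genes the CR-31 libraries overlapped the vehicle libraries in both organoid types and fractions. Dnajb1 was at 47.4, 54.6 and 51.7 CPM in N and 63.9, 65.7 and 58.4 CPM in KP polysomes under CR-31, and in KP total mRNA at 75.7, 72.2 and 68.8 CPM under vehicle and 103, 79.3 and 77.1 CPM under CR-31, where each CR-31 library was above each vehicle library. Hspb8 was at 42.8, 73.4 and 49.6 CPM and 1.84, 12.7 and 19.1 CPM in polysomes and at 39.4, 93.4 and 93.8 CPM and 2.08, 11.8 and 18.5 CPM in total mRNA under CR-31. Dnajb4 was at 16.5, 35.3 and 15.7 CPM and 14.1, 13.97 and 16.6 CPM in polysomes under CR-31, and in total mRNA under vehicle at 12.5, 22.1 and 16.4 CPM and 9.89, 6.44 and 11.9 CPM. Hspb8 overlapped its vehicle libraries throughout, while in KP polysomes each CR-31 library of Dnajb4 was above each vehicle library.

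Among the other genes Hsf1 was at 63.2, 56.4 and 76.2 CPM in N polysomes and at 57.3, 59.2 and 50.5 CPM in N and 90.5, 60.1 and 58.6 CPM in KP total mRNA under CR-31, and in N total mRNA each CR-31 library was below each vehicle library. In total mRNA Hspa8 stood at 5479, 5568 and 7204 CPM in N and 5076, 4554 and 4804 CPM in KP organoids under vehicle and at 4739, 5585 and 6841 CPM and 4930.4, 4746 and 4837 CPM under CR-31, with 3999, 5243 and 6097 CPM in N polysomes. Hsp90ab1 stood at 3497, 3491 and 4083 CPM and 3086, 3347 and 3186 CPM under vehicle and at 3269, 3533 and 3151 CPM and 2861, 3621 and 3276 CPM under CR-31, with 2905, 3419 and 3279.8 CPM in N polysomes. In these groups Hspa8 and Hsp90ab1 overlapped between treatments. Fkbp4 was at 348, 328 and 406 CPM in N and 684, 569.6 and 659 CPM in KP polysomes and at 347, 357 and 522 CPM and 902, 598 and 626 CPM in total mRNA under CR-31, so that KP stayed above N without overlap, and in KP polysomes each CR-31 library was below each vehicle library. Hspe1 was at 164, 204 and 301 CPM and 344, 266 and 334 CPM in polysomes under CR-31, and in total mRNA at 196, 229 and 273 CPM and 335, 259 and 342 CPM under vehicle and 179, 202 and 195 CPM and 393, 239 and 348 CPM under CR-31. Ahsa1 was at 124, 129 and 98.3 CPM and 197, 143 and 162 CPM in polysomes under CR-31, and in total mRNA at 114, 105 and 82.4 CPM and 134, 164 and 129.5 CPM under vehicle and 131, 124 and 109 CPM and 121, 149 and 138 CPM under CR-31. Hspe1 and Ahsa1 overlapped between treatments in both organoid types and fractions.

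The translational efficiency changed with CR-31 for 0 members in either organoid type by edgeR, with or without the block, with 627 genes and 0 members at an unadjusted p under 0.05 in KP and 328 genes and 1 member, Hspa1b (-1.08 (SE 0.49)), in N organoids. Its changes in the N replicates were 0.06, 0.03 and -3.36, and without N replicate 3 the estimate was 0.03 (SE 0.20), with 51 genes and 0 members at an unadjusted p under 0.05. A regression of polysome-associated on total mRNA called 0 members for CR-31 without the block. With the block it called 4 members as higher and 1 as lower in KP organoids (6.02% and 7.76% of all genes), and 0 in N organoids. They were Hspa4 (0.66), Stip1 (0.77), Hsph1 (1.35), Hspa1b (3.07, SE 1.03) and, lower, Hsf1 (-0.47), with adjusted p from 0.24 to 0.248. The efficiency changes in KP replicates 1, 2 and 3 were 0.01, 0.41 and -0.14 for Hspa1b and -0.02, 0.26 and -0.08 for Stip1. For Hspa4 they were 0.74, 0.12 and -0.02, and those of Hsph1 and Hsf1 are given below. No replicate of Hspa1b came near the value of the regression. In KP organoids the block without N replicate 3 called 15 members as higher and 5 as lower (24.1% and 22% of all genes). The higher ones included Dnajb4 (0.81 (SE 0.34, adjusted p = 0.194)), Hspa4l (0.72 (SE 0.26, adjusted p = 0.193)), Hspd1 (0.63 (adjusted p = 0.193)), Hsph1 (0.60 (adjusted p = 0.193)) and Hsp90aa1 (0.54 (adjusted p = 0.193)), and the lower ones were Hspb1 (-0.46 (adjusted p = 0.193)), Hsf1 (-0.44 (SE 0.13, adjusted p = 0.193)), Fkbp4, Dnajb1 and Cdc37. These calls rested mostly on KP replicate 1, whose CR-31 lysate had the low correlation between its libraries. The changes in KP replicates 1, 2 and 3 were 1.86, 0.21 and 0.22 for Dnajb4, 1.44, 0.13 and 0.43 for Hspa4l, 1.32, 0.29 and 0.10 for Hspd1, and 1.00, 0.44 and 0.16 for Hsph1. With KP replicate 1 also left out, a fit chosen after the data were seen, the 20 calls became 1 higher and 1 lower (3.09% and 9.07% of all genes), namely Hsph1 (0.30 (SE 0.11, adjusted p = 0.193)) and Hsf1 (-0.36 (SE 0.11, adjusted p = 0.134)), and Dnajb4, Hspa4l and Hspd1 were at 0.22, 0.28 and 0.20 (adjusted p = 0.419, 0.282 and 0.489).

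The response to CR-31 was compared between KP and N organoids as an interaction. EdgeR called 0 members and 0 genes in polysome-associated mRNA, total mRNA and translational efficiency, with 258, 15 and 1227 genes and 1, 0 and 5 members at an unadjusted p under 0.05. The 5 were Dnajb4, Hsph1, Hspa4l, Chordc1 and Hsf1 (1.66, 1.48, 1.29, 1.38 and -0.71). Without N replicate 3 their estimates were 0.87, 0.64, 0.78, 0.52 and -0.44, and 692 genes and 1 member, Fkbp4 (-0.56), had an unadjusted p under 0.05. Hsf1 had per-replicate changes in efficiency of -0.76, -0.45 and -0.29 in KP and 0.01, 0.01 and 0.85 in N organoids. Leaving out the lysate N CR-31 replicate 2 gave 7 member calls for translational efficiency, and DESeq2 gave 1 (Hspa4). The share of all genes called in these 2 settings is not given, so the calls are no result about the members as a set. With the block and without N replicate 3, 3 members were called as higher and 4 as lower in KP than in N for the effect of CR-31 on polysome-associated mRNA (11.1% and 15.9% of all genes). Those with a smaller or more negative change in KP were Hspa1a (-0.73 (SE 0.28, adjusted p = 0.145)), Fkbp4 (-0.53 (adjusted p = 0.109)), Hspb8 (-0.53 (adjusted p = 0.115)) and Hsf1 (-0.32 (adjusted p = 0.217)), and the others were Bag3 (0.37 (adjusted p = 0.162)), Chordc1 and Cct4. With KP replicate 1 also left out, 0 members were called (3.09% and 4.04% of all genes), with 1775 genes and 2 members at an unadjusted p under 0.05.

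The third question is which chaperone mRNAs are loaded onto polysomes more or less than the average mRNA of the same lysate. Hsp90aa1 stood out in both organoid types. Under vehicle it was at 653, 499 and 659 CPM in N polysomes against 331, 143 and 173 CPM in N total mRNA, and at 706, 353 and 527 CPM against 287, 139.98 and 207 CPM in KP organoids. Each polysome library was above each total library. The log2 ratio of polysome-associated to total mRNA was 1.52 (SE 0.33, adjusted p = 0.0223) in N and 1.23 (SE 0.32, adjusted p = 0.0663) in KP organoids, and 1.33 (adjusted p = 0.0145) and 1.23 (adjusted p = 0.00855) without N replicate 3. The constitutive Hsp90ab1 had a negative ratio, -0.25 (SE 0.14) in N and -0.41 (SE 0.14, adjusted p = 0.12) in KP organoids, the second of which passed the test.

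In N organoids Hspa4l, an Hsp110 protein, was the other member above 0 by test (0.92 (SE 0.28, adjusted p = 0.0898)), which made 2 higher and 0 lower (8.83% and 6.36% of all genes). Without N replicate 3 there were 2 higher and 13 lower (15% and 20.7%), led by Dnajb1 (-0.67 (SE 0.11, adjusted p = 0.0112)), Hspb8 (-0.60 (SE 0.18, adjusted p = 0.0501)), Hspb1 (-0.57 (adjusted p = 0.0679)), Hspa1a (-0.50 (adjusted p = 0.134)) and Cct3 (-0.49 (adjusted p = 0.0312)). In KP organoids Hsf1 was the other member above 0 (0.34 (SE 0.16, adjusted p = 0.218)), while Hspa8 (-0.41 (SE 0.12, adjusted p = 0.0899)), Bag3 (-0.41 (SE 0.14, adjusted p = 0.119)), Hsp90ab1, Cct3 and Cct5 were below 0, so that 2 were higher and 5 lower (14.2% and 13.3%). Without N replicate 3 there were 5 higher and 10 lower (23.1% and 24.7%), and with the block 1 higher (Hsp90aa1) and 3 lower (11.1% and 8.72%). The KP count was 0 without KP replicate 2, KP replicate 3 or the lysates KP vehicle replicate 1 or 2. In these fits Hsp90aa1 lost its KP call as well. The KP count was 3 without KP vehicle replicate 3. It was 4 without N replicate 1, N vehicle replicate 1, N CR-31 replicate 1 or KP CR-31 replicate 2. In N organoids the count was 6 and 5 without the vehicle and the CR-31 lysate of N replicate 3. It was 1 without N replicate 2 or its vehicle lysate. These left-out counts of both organoid types are given without the share of all genes and describe the fits.

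**Figure D4:**
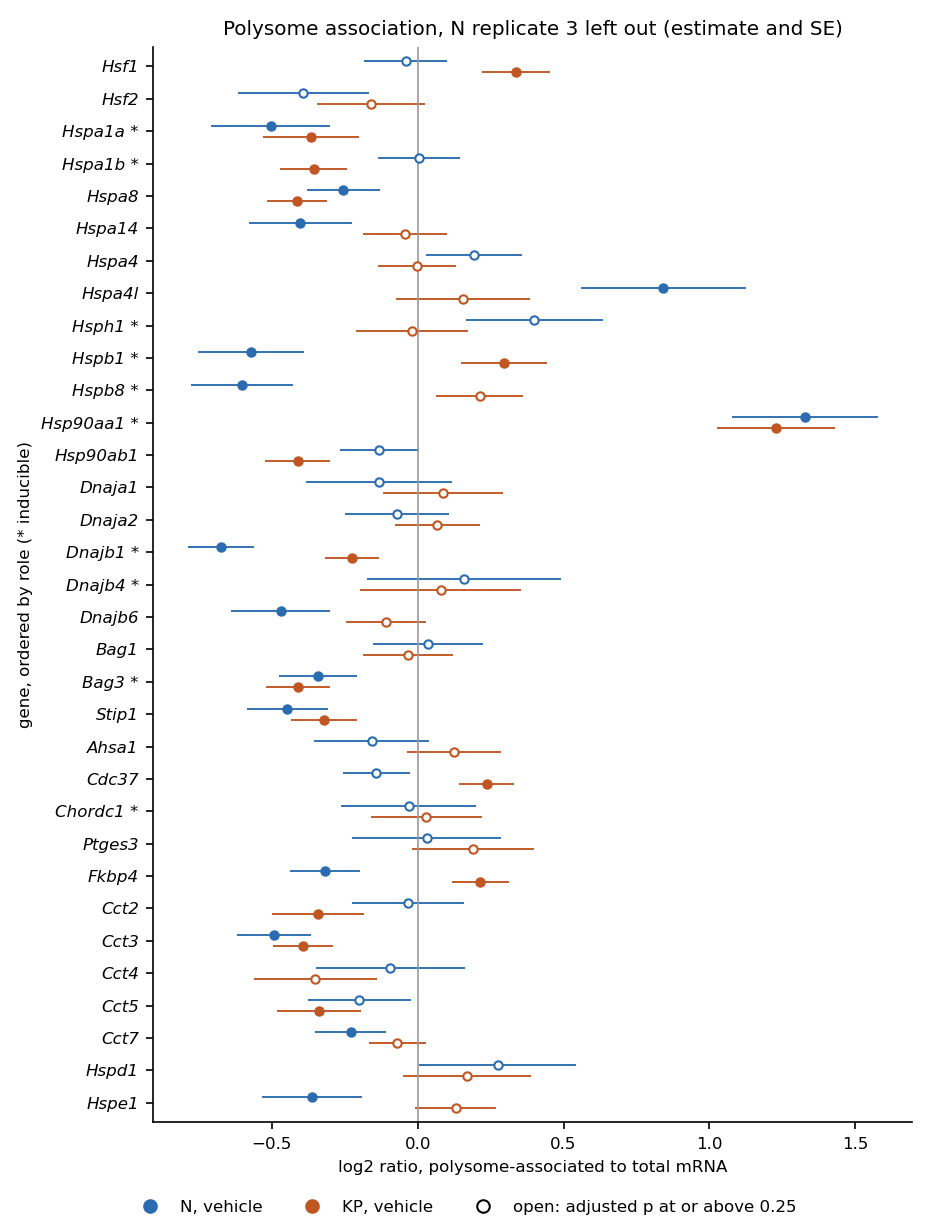
Log2 ratio of polysome-associated to total mRNA (bars are the SE) of the 33 genes in vehicle-treated N (blue) and KP (orange) organoids, relative to the average mRNA, with N replicate 3 left out and filled where the adjusted p was below 0.25. Hsp90aa1 is farthest to the right in both (1.33 and 1.23), and Dnajb1 is farthest to the left in N organoids (-0.67).

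Of 31 further chaperone genes that were tested (prefoldins, other J-domain and BAG proteins and others), 5 stood higher and 4 lower in KP polysomes under vehicle, against 20.9% and 22.2% of all genes, and the same numbers were counted in total mRNA, against 13.1% and 15.4%. Dnaja4, a J-domain protein, and Hspa2, an Hsp70 best known from the testis, had the largest differences in polysomes (-1.82 with adjusted p = 0.0653, and -1.53 with adjusted p = 0.0128). Under CR-31 Dnaja4 differed by -2.56 in polysomes and -2.54 in total mRNA (adjusted p = 0.0371 and 0.0146). None of the 31 was called by edgeR for CR-31 in either organoid type or fraction, with 0 to 2 of them at an unadjusted p under 0.05.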

How the data were processed

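Read pairs were aligned with HISAT2 by the authors, who discarded reads with several matches and deposited raw counts per RefSeq gene and library, beside RPKM values of the same libraries. Their methods name a human genome build, whereas the genes of the table are mouse genes. The counts were not pooled, and 0 columns of per-sample values were left unused. CPM are counts scaled to the TMM-adjusted library size within a fraction, and RPKM are the deposited values, used only for levels of different genes. At these depths intervals from counting would be far below the spread between replicates.

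Counts were tested with edgeR 4.0.16 (R 4.3.3, limma 3.58.1), TMM scaling and the quasi-likelihood test, on the 11438 entries with 1 symbol, no repeat and a count above 0 in each library. Polysome-associated and total mRNA each had a model of the 4 groups. Translational efficiency and the ratio of polysome-associated to total mRNA came from 1 model of the 24 libraries with the lysate as a block. Benjamini-Hochberg adjustment was over all 11438 genes, with the study's limit of 0.25 on the adjusted p but without its filters on effect size and slope. DESeq2 1.42.0 was an alternative, as was a regression on total mRNA, the form that the study used for translational efficiency. Figures were drawn with matplotlib 3.10.9 (Python 3.11.15, numpy 2.4.6).

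A further allele of the KP mice is not reported here. Replicate numbers come from the labels. Deviations of same-numbered vehicle and CR-31 libraries were correlated across genes above 0.1 in 6 of 6 pairs of N (0.55 to 0.89) and 6 of 6 of KP (0.45 to 0.80), and in 2 of 6 pairs of N with KP under vehicle and 2 of 6 under CR-31. The numbers thus pair treatments within an organoid type. On simulated counts for 11438 genes the test of KP against N under vehicle recovered 80% of 100 genes changed by a log2 of 2, and 21% of 100 changed by 1, in polysome-associated mRNA, 89% and 49% in total mRNA, and 96% and 45% in translational efficiency. Of the calls, 21 of 122, 52 of 190 and 46 of 187 were false.

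The members, the other gene lists and the tests were chosen with earlier results of these data known. All 33 members with an entry are named. Values in each library are given for Hsf1, Hspa1a, Hspa1b, Hspa8, Hsp90aa1, Hsp90ab1, Hsph1, Dnajb1, Hspb1 and Bag3 and for the 8 called members with the largest difference between KP and N polysomes under vehicle. Other chaperone genes are named where they are among the 2 called with the largest change in a comparison.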

Additional observations from a re-analysis of the deposited data

How the results depend on the processing

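Of the values recomputed for members called in that comparison with or without the block, 2115 kept direction and side of the threshold, 182 newly passed it, 276 no longer passed it and 3 changed sign. These were Hspb1 in KP against N polysomes under vehicle (0.030 under the block without N replicate 3) and, with KP replicate 1 also left out, Hsp90aa1 in KP against N polysomes and Hspa4l in total mRNA under CR-31 (-0.0436 and 0.225). Of the values of members called in neither fit 7.58% changed sign, 946 of 12472, and without N replicate 3 it was 23.4%, 102 of 436, Dnajb1 and Hspa1a in KP against N polysomes among them. Calls for KP against N under vehicle in polysome-associated mRNA, total mRNA and translational efficiency ranged over the left-out replicates from 8 to 19, 4 to 14 and 0 to 9, and under CR-31 from 1 to 14 and 5 to 18. For polysome-associated against total mRNA they ranged from 0 to 15 in KP and 1 to 15 in N, and for the interaction in translational efficiency from 0 to 7. They stayed at 0 for CR-31 against vehicle in both organoid types and for the other interactions. These ranges are given without the shares of all genes and describe the fits, not the members.

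With the replicate block the calls for KP against N became 23 and 16 under vehicle and 16 and 23 under CR-31, in polysome-associated and total mRNA. They were 3 for CR-31 in KP polysomes, 2 for CR-31 in N total mRNA and 4 for polysome-associated against total mRNA in KP, and the block moved no other count by over 1.5 times. With the block and without N replicate 3, which was added after the data were seen, they were 25, 17 and 14 for KP against N under vehicle (polysome-associated, total, efficiency), where 80.8%, 53.9% and 42.3% of all genes were called, and 22 under CR-31 in polysomes (73.9%). They were 22 and 20 for CR-31 in KP (polysome-associated, efficiency, 54.9% and 46.1%), 10 in N polysomes (15%), 7 for the interaction in polysomes (27%), and 17 and 17 for polysome-associated against total mRNA in N and KP (43.1% and 54.2%). Translational efficiency by regression on total mRNA gave 2 calls for KP against N, 23 with the block, and 5 for CR-31 in KP with the block. DESeq2 gave 2 for CR-31 in KP total mRNA, 2 in N total mRNA, 1 for the interaction in efficiency and 4 for polysome-associated against total mRNA in N. Without a filter on low counts the last comparison gave 4 in KP. At an adjusted p under 0.05 the counts were 4 and 1 under vehicle and 1 and 4 under CR-31 for KP against N. For polysome-associated against total mRNA they were 1 in N and 0 in KP. Shares of all genes are not given at this threshold, without the filter, or for the DESeq2 counts of the interaction and of polysome-associated against total mRNA. Those counts describe the settings and not the members. The causes were not tested, except that a block or a left-out replicate changes the estimate of spread by construction. With KP replicate 1 also left out of that fit, which was likewise added after the data were seen, the calls were 23, 27 and 16 for KP against N under vehicle (76.3%, 73.6% and 59% of all genes), 19 and 24 under CR-31 (66.2% and 72.1%), 13, 9 and 2 for CR-31 in KP (polysome-associated, total, efficiency, 38%, 20% and 12.2%), 6 and 16 in N (polysome-associated, total, 9.08% and 27.7%), 4 for the interaction in efficiency (15.9%), and 21 and 19 for polysome-associated against total mRNA in N and KP (61.6% and 65.8%). Each member had a count above 0 in each library, and what depth or the number of replicates limits was not tested.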

Other observations

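The entry shared by Stub1, the ubiquitin ligase CHIP that works with Hsp70, and Jmjd8 was outside the tests because its reads cannot be assigned to either gene. When shared entries were kept, which was chosen after the data were seen, the entry Jmjd8+Stub1 was higher in KP than in N organoids in polysome-associated mRNA under vehicle (log2 difference 0.99, SE 0.20, adjusted p = 0.00946 by edgeR) and in total mRNA under CR-31 (0.57, SE 0.19, adjusted p = 0.078). In KP organoids its ratio of polysome-associated to total mRNA was above the average mRNA (0.69, SE 0.16, adjusted p = 0.0506). By library, as a description, it was at 384 to 431 CPM in KP polysomes under vehicle and 255 to 313 CPM under CR-31, without overlap. The entries Cct8+Usp16 and Acat3+Tcp1 overlapped between KP and N polysomes under vehicle.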
